A study of Mus musculus with 4 samples.

Results

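The genes described here are 10 core members of the N6-methyladenosine (m6A) machinery, taken from a site list of young mouse cortex by their gene symbols. They are the writers Mettl3, Mettl14 and Wtap, the erasers Fto and Alkbh5, and the readers Ythdf1, Ythdf2, Ythdf3, Ythdc1 and Hnrnpa2b1. Of these 10 genes, out of 4206 symbols in the list, 6 had at least 1 site, and together they held 59 of 28412 sites. The list comes from 4 sublibraries of cortical cells profiled by scDART-seq, in which the deaminase APOBEC1 fused to a YTH domain converts cytosines next to m6A to uracil. All 4 sublibraries share a single pool of cells carrying APOBEC1-YTH or APOBEC1-YTHmut, the form with a mutated YTH domain, from mice that were 6 to 8 weeks old when a course of tamoxifen began (20 mg/kg every 24 hours for 5 days, with collection 7 days later). Cortex was dissociated with papain and the labels put replicates 1 and 2 into every sublibrary. Neither the promoter nor any Cre behind the transgenes is named in the sources. Sites are not tied to samples, genotypes or cell types, so values are compared between genes within the list, without replicates and with no test.

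m6A is the commonest internal modification of messenger RNA. METTL3 is the catalytic subunit of the methyltransferase, METTL14 its partner that holds the RNA, and WTAP the adaptor that keeps the complex in nuclear speckles. FTO and ALKBH5 are demethylases that can remove the mark. Readers bind it: the cytoplasmic YTHDF proteins and the nuclear YTHDC1 hold m6A in the pocket of their YTH domain, and HNRNPA2B1 is an RNA-binding protein of the hnRNP A/B family reported to act in m6A-dependent processing. In the brain, m6A is abundant and the pathway is known for roles in neurogenesis, axon growth and synaptic function.

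The readers carried nearly all of the sites. All 5 readers had a site and together held 53, while the 3 writers had 0 and of the 2 erasers Fto had 6 and Alkbh5 0. Over all annotated protein-coding genes, 17.6% had at least 1 site (3857 of 21951), so a gene without a site was the usual case. That share takes in every annotated gene, whatever its expression in cortex. Expression is not in the list, so whether the writers stood apart from genes of like expression was not tested. The median number of sites was 4 for the readers, ranging from 1 to 25, and 0 for the 5 writers and erasers. The median gene in the list had 2 sites. At least 20 sites were found in 1.5% of annotated protein-coding genes and in 344 of the 4206 listed symbols. Ythdf2 and Hnrnpa2b1 were among them.

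**Figure D1:**
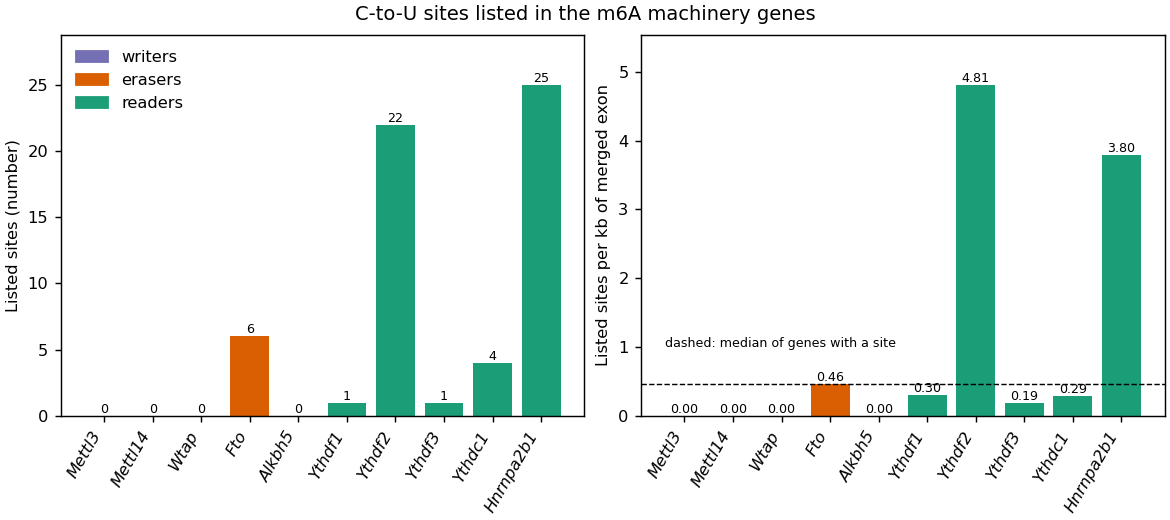
Listed sites per gene (left, number) and per kb of merged exon (right) for the 3 writers, 2 erasers and 5 readers. Bars are single values from 1 list, without error. Hnrnpa2b1 with 25 and Ythdf2 with 22 sites stand above the other readers, and 4 genes have 0.

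The sequences around the edited cytosines come first, because they show how alike or unlike the members' sites are. Each is read from the GENCODE M21 transcripts, 5′ to 3′ on the gene's strand, with positions in mm10. Capitals mark the listed cytosines. In this assay the methylated base is taken to be an A just before the edited C, and RAC means that A or G stands before that A. Some listed cytosines follow another base, such as 132204317 of Ythdf2 (CTGCG), and for these the rule names no methylated base. The densest run of sites among the members lay in the last part of the coding sequence of Ythdf2 (chr4:132204267-132204326, minus strand). It is shown whole because 9 of that gene's sites fall in it.

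Ythdf2 run: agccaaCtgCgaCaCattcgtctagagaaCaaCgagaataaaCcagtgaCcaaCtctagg

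Its relatives Ythdf1 and Ythdf3 had 1 site each. Both fell in the part of the coding sequence that aligns with the Ythdf2 run, and the aligned stretches of 27 bases are set out together to show this. They lie at chr2:180910831-180910857 (minus strand) in Ythdf1, chr4:132204276-132204302 (minus strand) in Ythdf2 and chr3:16205254-16205280 (plus strand) in Ythdf3.

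Ythdf1: gagaataacgacaaCaaacctgtcaca
Ythdf2: gagaaCaaCgagaataaaCcagtgaCc
Ythdf3: gaaaataatgaCaacaaaccagtaacc

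The remaining members with sites are shown by their site with the highest count, and Hnrnpa2b1 also by its highest coding site. These windows have 21 bases with the edited C in the middle: Hnrnpa2b1 in an exon of a retained-intron transcript (chr6:51462204-51462224, minus strand) and in the CDS (chr6:51466968-51466988, minus strand), Ythdc1 in the CDS (chr5:86815699-86815719, plus strand) and Fto in the 3' UTR (chr8:91667374-91667394, plus strand).

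Hnrnpa2b1 retained intron: ttgagtttaaCaataaactca
Hnrnpa2b1 CDS: ccgaggttgaCgctgccatgg
Ythdc1 CDS: agagagtgaaCaagataaaaa
Fto 3' UTR: aggagtaagaCccaccgcagc

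Ythdf2 (ENSMUSG00000040025.17; chromosome 4, 132184912 to 132212303, minus strand) encodes the YTHDF reader best known for sending methylated transcripts to decay. It had 22 sites, and 270 symbols of the list had more. Per kb of merged exon that is 4.81 sites, a density reached or passed by 5.02% of listed genes. Its site counts had a median of 5.5 and ran from 3 to 25. A count of 10 or more was reached by 9 of the 22 sites (40.9%, 95% exact interval 20.7 to 63.6, against 24.7% of the whole list). The site count is the unlabelled whole number that the authors deposited for each site, and its meaning was not stated there. Intervals of shares cover counting error only, and sites of a gene are not independent.

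All 22 sites of Ythdf2 lay close to the stop codon. They spanned 566 nt of a transcript of 4129 nt, from 354 nt before the stop codon to 211 nt after it. Over the whole list, 30.3% of sites on coding transcripts lay within 400 nt of the stop codon. The 14 coding sites were in exon 4 of 5 and their counts summed to 132. The 8 sites in the 3' UTR were in exon 5 and their counts summed to 48, although that 3' UTR runs on for 2012 nt. A CDS share of 63.6% (95% exact interval 40.7 to 82.8) is high for this list, in which 26.0% of sites were coding. Of the 344 genes with at least 20 sites, 12.8% had a CDS share as high as that of Ythdf2 or higher.

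The coding sites fell in the part that encodes the end of the protein. A local alignment of the translated sequences of Ythdf2 and Ythdc1, which have the YTH domain in common, joined codons 355 to 540 of Ythdf2, with 29.8% of the aligned residues identical. In that stretch lay 11 of the 14 coding sites, with 116 of their summed count of 132, and the other 3 followed it at codons 556, 557 and 563. The coding sequence of Ythdf2 holds 60 RAC cytosines, of which 24 are in the aligned stretch. Before its first site at codon 462, 43 RAC cytosines went unlisted. The YTH domain of published DART fusions is that of human YTHDF2, so an mRNA for the fusion itself would encode a like sequence. Which YTH domain was used here is not given in the sources, and whether reads of the fusion's mRNA were placed on Ythdf2 was not tested. The like sequence would be coding, as the 14 coding sites are. The other 8 sites lie in the 3' UTR, 57 to 211 nt after the stop codon. Where the reads came from was not tested for either group.

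In the run of 60 bases printed above, 9 sites stood within 48 nt, at codons 510 to 525. Of the 4206 symbols, 0.808% had 9 or more sites within 50 nt, a limit chosen after the run was seen. The 9 site counts summed to 107, from 3 to 25. The highest, 25, was at 132204320 in the context CAACT, and the next were 18 at 132204294 (CAACG) and 16 at 132204297 (GAACA). All 7 RAC cytosines between the first and the last site of the run were listed. The other 2 sites, at 132204317 (CTGCG) and 132204312 (ACACA), were outside RAC with the lowest count of the list, 3. Upstream, the first site of the gene was at 132204462 with a count of 5 in CAACG, followed by 132204452 with 4 in GGACA.

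The 3' UTR sites of Ythdf2 were fewer and lower. The highest was at 132186821, 103 nt after the stop codon, with a count of 13 in TGACT, and the next at 132186757 with 10 in TAACT. The classic m6A context GGACT occurred at 2 of the sites, 132186843 and 132186762, with counts of 3 and 5. The last site, at 132186713 in AACCT, had a count of 3. The coding site nearest to the stop codon was at 132204161, 53 nt before it, with a count of 3 in AAACG. The median site count was 8 in the CDS and 4.5 in the 3' UTR.

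**Figure D2:**
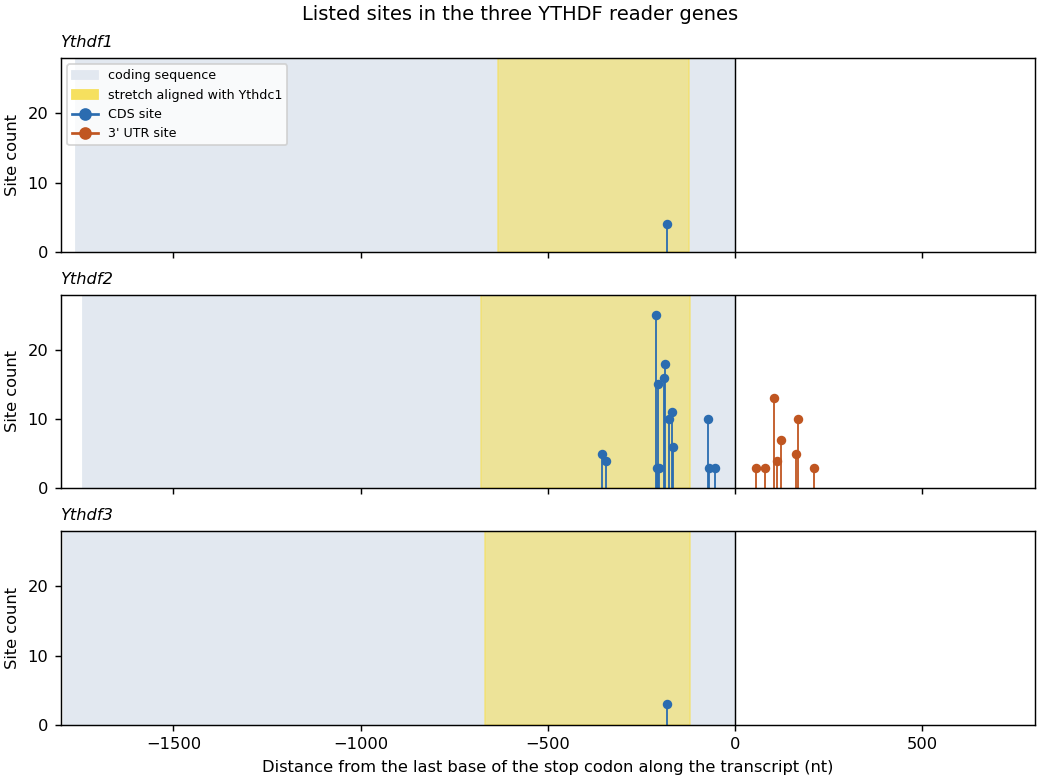
Site count of each listed site in Ythdf1, Ythdf2 and Ythdf3 against its distance in nt from the last base of the stop codon. Grey is coding sequence, yellow the stretch that aligned with Ythdc1. The single sites of Ythdf1 and Ythdf3 lie 183 nt before the stop codon, beside the densest run of Ythdf2 sites.

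Ythdf1 and Ythdf3 were nearly empty beside Ythdf2. Ythdf1 (ENSMUSG00000038848.14; chromosome 2, 180904377 to 180920949, minus strand), a reader linked to the promotion of translation, had 1 site, at 180910843 with a count of 4 in CAACA. Ythdf3 (ENSMUSG00000047213.14; chromosome 3, 16183212 to 16217037, plus strand), which works together with the other YTHDF proteins, had 1 site, at 16205265 with a count of 3 in TGACA. A single site was the commonest number in the list, found for 36.9% of symbols. The 3 genes offer similar numbers of RAC cytosines in their exons, 93 in Ythdf1, 115 in Ythdf2 and 143 in Ythdf3. Of these, 14.8% were listed in Ythdf2, 1.08% in Ythdf1 and 0.699% in Ythdf3. Of the 17 RAC sites of Ythdf2, 11 were coding and 6 were in the 3' UTR. Expression and read depth are not in the list, so the part of transcript abundance in this difference was not tested. The part of reads from the fusion's mRNA in the Ythdf2 value was not tested either.

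The single sites of Ythdf1 and Ythdf3 were neighbours in the alignment. Each was 183 nt before its stop codon, in exon 5 of 6 and in the stretch that aligned with Ythdc1. The site of Ythdf1 was the last base of codon 526 and that of Ythdf3 the last base of codon 536, which aligns with codon 525 of Ythdf1, so they were 1 codon apart. In Ythdf2 the corresponding codons, 519 and 520, lie between the listed codons 518 and 522. The cytosine of the Ythdf3 site has a counterpart in RAC in Ythdf1 (CGACA), and that of the Ythdf1 site a counterpart in RAC in Ythdf3 (CAACA). Neither counterpart was listed. In Ythdf2, neither position holds a C. Before their single sites, 56 of 66 coding RAC cytosines of Ythdf1 and 55 of 62 of Ythdf3 went unlisted.

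Most listed coding positions of Ythdf2 were not RAC cytosines in its relatives. In Ythdf2 itself, 11 of these 14 positions were in RAC. The 8 sites of its 3' UTR were not aligned. The predicted proteins were 70.1% identical between Ythdf1 and Ythdf2 and 71.8% between Ythdf2 and Ythdf3 over the aligned residues. Of the 14 coding sites of Ythdf2, 11 aligned with a C in Ythdf1 and 7 with a C in Ythdf3, and in each gene 5 of these were in RAC. None of the aligned positions was listed in either gene. The position of the highest Ythdf2 site, CAACT, reads CAGCT in Ythdf1 and CAATT in Ythdf3. At the second highest, CAACG, Ythdf1 keeps RAC as TAACG and was not listed there, while Ythdf3 reads TAATG.

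Ythdc1 (ENSMUSG00000035851.14; chromosome 5, 86804221 to 86836659, plus strand) is the nuclear YTH reader, known for roles in splicing and export of methylated transcripts. It had 4 sites, all coding and all in the first part of the gene, at codons 37 to 253 of 737 (stop codon included). The highest, at 86815709 in exon 2 of 17, had a count of 27 in GAACA and was the second highest site count of all members. This position is also in an exon of Gm43055, which is annotated on the same strand. The other 3 were in exon 4, at 86817130 with a count of 3 in ATGCA, 86817176 with 5 in GGACG and 86817204 with 4 in GAACA. None of the 4 lay in the stretch that aligned with Ythdf2, codons 302 to 489, which holds 9 of the 58 coding RAC cytosines. The readers Ythdf2 and Ythdc1 thus had coding sites in different parts of their proteins, and the 2 genes differ in where their RAC cytosines are.

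Hnrnpa2b1 (ENSMUSG00000004980.16; chromosome 6, 51460932 to 51469894, minus strand) had the most sites of the members when every listed site was counted, 25, and 230 symbols of the list had more. Ythdf2 had more sites than Hnrnpa2b1 among those with a count of 4 or more (15 against 13), those with a count of 10 or more (9 against 2) and those in RAC (17 against 15). With sites within 10 nt merged, Hnrnpa2b1 had more than Ythdf2 (17 against 10). Per kb of merged exon, with every listed site counted, it had 3.80 sites, less than Ythdf2. Its site counts were lower than those of Ythdf2: the median was 4, as in the whole list, and 2 sites reached a count of 10 (8%, 95% exact interval 0.984 to 26.0). The summed site count was 151 in Hnrnpa2b1 and 180 in Ythdf2. RAC held 15 of its 25 sites (60%, 38.7 to 78.9) and 17 of the 22 of Ythdf2 (77.3%, 54.6 to 92.2), intervals that overlap.

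The sites of Hnrnpa2b1 lay in separate parts of the gene, with 3124 nt of genome between the last coding site and the next site. In the CDS there were 11, at codons 68 to 194 of 354 (stop codon included), a part that mostly encodes the RNA recognition motifs, and in the 3' UTR 9. The remaining 5 were in an exon annotated only for a retained-intron transcript, between the 3' UTR parts of other transcripts. That exon held the highest site count of all members, 32 at 51462214 in TAACA, where its 4 neighbours had 3 to 5. The second highest was 12 at 51466978 in the CDS (TGACG) and the third 9 at 51463126 in the 3' UTR (AGACA). The first site in the direction of transcription was at 51467003 with a count of 7 in TAACT, and the last at 51462043 with 6 in GAACC. The site nearest to the stop codon, 64 nt after it at 51463212, had a count of 3. Of the 19 sites on the transcript with the longest coding sequence, 6 lay within 400 nt of the stop codon, unlike Ythdf2, where all 22 did.

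**Figure D3:**
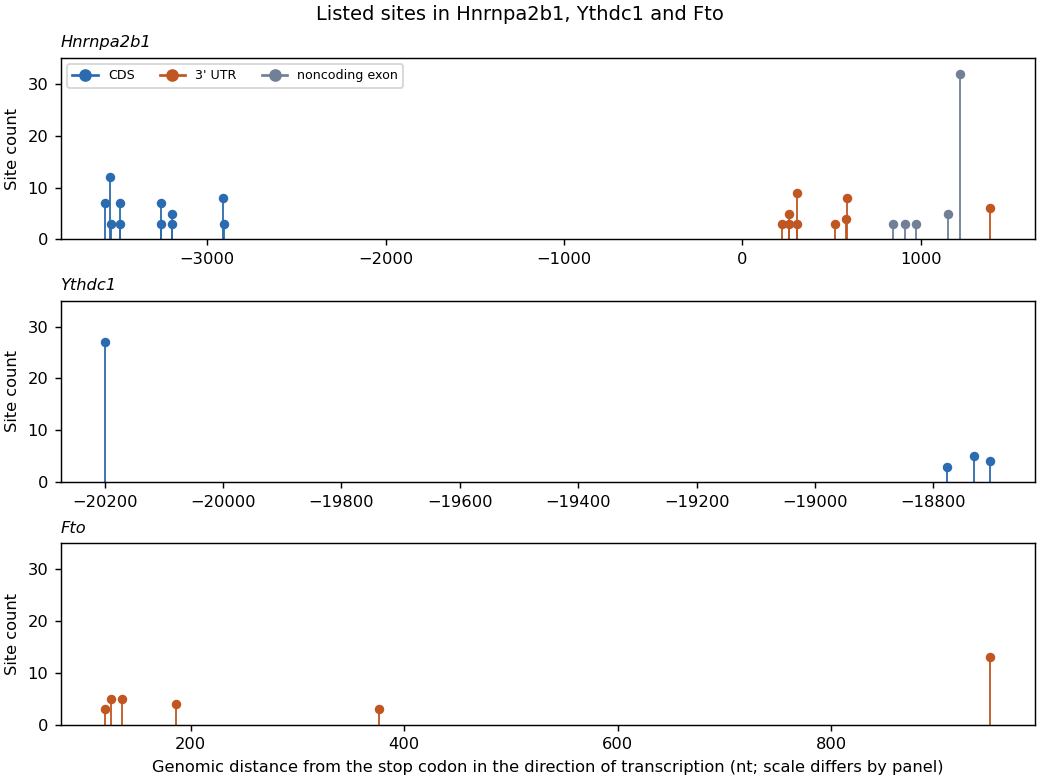
Site count of each listed site in Hnrnpa2b1, Ythdc1 and Fto against its genomic distance in nt from the stop codon, in the direction of transcription, with introns included and a different scale in each panel. Colour gives the annotated region. The highest site of Hnrnpa2b1, 32, is in the noncoding exon, and that of Ythdc1, 27, far upstream of the stop codon.

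Fto (ENSMUSG00000055932.15; chromosome 8, 91313525 to 91668439, plus strand), the demethylase also known from obesity genetics, was the only writer or eraser with a site. Its 6 sites were all in the 3' UTR, in exon 9 of 9. In order they were 91666555 with a count of 3 (ATTCA), 91666560 with 5 (AAACA), 91666571 with 5 (GAACA), 91666621 with 4 (TGACT), 91666811 with 3 (TGACA) and 91667384 with 13 (AGACC). The first was 120 nt after the stop codon and the last 949 nt after it. The last had the highest count and stood 573 nt from the nearest other site. Per kb of merged exon Fto had 0.460 sites, close to the median of 0.456 over genes with a site and above Ythdf1 with 0.302, Ythdc1 with 0.293 and Ythdf3 with 0.186. By length, then, Ythdf2 and Hnrnpa2b1 were denser in sites than Fto and the other 3 readers less dense.

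Mettl3 (ENSMUSG00000022160.18; chromosome 14, 52294841 to 52305128, minus strand), Mettl14 (ENSMUSG00000028114.16; chromosome 3, 123368297 to 123386108, minus strand), Wtap (ENSMUSG00000060475.13; chromosome 17, 12966796 to 12994169, minus strand) and Alkbh5 (ENSMUSG00000042650.3; chromosome 11, 60536381 to 60558512, plus strand) had 0 sites. The lowest site count in the list was 3, so a 0 says that no site reached the list, not that none was edited. Their merged exons hold 128 RAC cytosines in Mettl3, 194 in Mettl14, 172 in Wtap and 125 in Alkbh5. The members with a site hold 93 in Ythdf1, 115 in Ythdf2, 143 in Ythdf3, 145 in Hnrnpa2b1, 309 in Fto and 333 in Ythdc1, so the ranges overlap.

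Pooled over genes, reader sites were mostly coding, while those of Fto were in the 3' UTR. Of the 53 reader sites 31 were coding (58.5%, 95% exact interval 44.1 to 71.9), 17 were in the 3' UTR and 5 in a noncoding exon. In the whole list the shares were 26.0% in the CDS and 61.9% in the 3' UTR. Without Ythdf2, 17 of 31 reader sites were coding (54.8%, 36.0 to 72.7). Of those 31, 25 were from Hnrnpa2b1, where 11 were coding (44%, 24.4 to 65.1), an interval that includes the 26.0% of the list. The sites of Ythdf1, Ythdf3 and Ythdc1 (1, 1 and 4) were all coding. All 5 readers had a coding site, which 46.0% of listed symbols had. No member had a site in the 5' UTR.

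The site counts of the members were modest. Their median was 5 and their highest 32, while the whole list had a median of 4, a 90th percentile of 23 and a maximum of 3538. Sites past the 90th percentile were 1 each in Ythdf2, Ythdc1 and Hnrnpa2b1. A count of 3 was carried by 23 of the 59 sites (39.0%), close to the 41.0% of the list. RAC held 42 of the 59 (71.2%, 95% exact interval 57.9 to 82.2), against 77.5% of the list. All 36 member sites with a count of 4 or more were in RAC, as in the list as a whole, where the same edge may come from a filter that is not given.

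Some sites outside RAC sat beside a site with a higher count. Every member site outside RAC had the lowest count of the list, 3, so any RAC neighbour above 3 was higher by that edge alone. Of the 17 such member sites, 10 were within 5 nt of a RAC site with a higher count in the same gene (58.8%, 32.9 to 81.6). Over the whole list it was 2822 of the 6297 sites outside RAC that had a full sequence context (44.8%), a share inside the members' interval. The pair at 51463126 and 51463124 of Hnrnpa2b1, with counts of 9 and 3, is an example, and so is 132204314 with 132204312 in the Ythdf2 run, with 15 and 3. Among the 42 RAC sites, AAC was found at 25 and GAC at 17, and AAC made up 59.5% here and 62.5% of the RAC sites of the list.

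**Figure D4:**
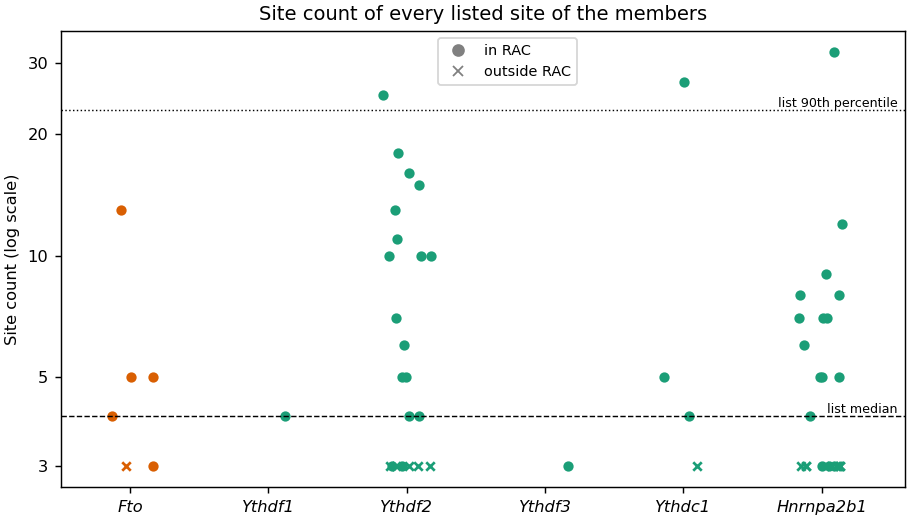
Site count (log scale) of every listed site of the 6 members that had one, with RAC sites as circles and sites outside RAC as crosses, spread sideways only to be seen. The dashed line is the list median of 4 and the dotted line its 90th percentile of 23. All crosses lie at a count of 3.

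Sites were also uneven among further genes of the pathway. Of 38 genes in 5 wider lists, 19 had a site, against 17.6% of all protein-coding genes. Among 9 further writers 3 had a site and the median was 0. Zc3h13, a scaffold of the methyltransferase complex, had 12, all coding, with a highest count of 8, and Rbm15b and Mettl16 had 1 each. Virma and Rbm15, other subunits of the complex, had 0. Among 10 further readers 5 had a site, with a median of 0.5. Prrc2a had 17 sites, all coding, with a highest count of 55, above that of any core member. Eif3a, a subunit of a translation initiation factor, had 14 with a highest count of 18, and Hnrnpc had 5. Ythdc2, the last YTH protein, and Igf2bp1, Igf2bp2 and Igf2bp3 had 0.

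Of 6 partners of readers 5 had a site, each with 1 or 2: Srsf3, a splicing factor that works with YTHDC1, had 2, and Cnot1, the scaffold of the deadenylase complex that YTHDF2 recruits, had 1. Sites were found in all 6 hnRNP A/B relatives (median 3.5), up to 7 in Hnrnpa0, well below the 25 of Hnrnpa2b1. Per kb of merged exon Hnrnpa0 had 2.61 sites and Hnrnpa2b1 3.80, while Hnrnpa1 had 0.634. None of the 7 ALKBH relatives had a site, like Alkbh5 itself.

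**Figure D5:**
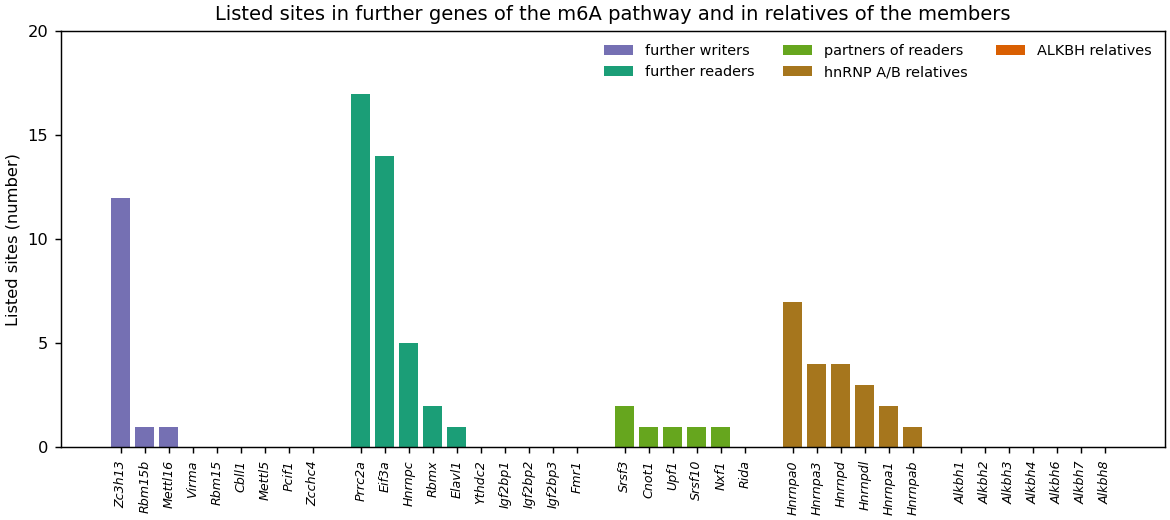
Listed sites per gene in 5 wider gene lists, with genes on the horizontal axis and the number of sites on the vertical axis, single values from 1 list. Prrc2a with 17, Eif3a with 14 and Zc3h13 with 12 lead, and all 7 ALKBH relatives are at 0.

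Of 34 markers of cortical cell types, 22 had a site, against 17.6% of all protein-coding genes. The markers were chosen with earlier results of these data known, and none of another tissue were counted. The counts therefore do not test the labelled tissue. Markers with a site were 4 of 5 for excitatory neurons, 2 of 5 for inhibitory neurons, 3 of 5 for astrocytes, 5 of 5 for oligodendrocytes, 1 of 4 for oligodendrocyte precursors, 2 of 5 for microglia and 5 of 5 for endothelial and mural cells. The edited base was a C in the annotated transcript at 28337 of 28338 exonic positions. Which cell type a member's sites come from cannot be read from the list, and read depth is unknown.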

How the data were processed

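The authors deposited 1 list of sites for the whole series, with a whole-number count per site and no header. STAR 2.7.5 and the build mm10 are named per the submitters' processing notes, and per the series text sites were called with the Bullseye pipeline. The sources do not state filters or how the mutant fusion was used. Depth per sublibrary is unknown. Here, sites were taken by deposited symbol and placed on GENCODE M21 (coordinates of mm10, 1-based), a site counted as 3' UTR if any transcript made it so, else as CDS, then 5' UTR, then exon of a noncoding transcript, then intron. Codons and distances of members use the coding transcript with the longest CDS, and distances over the whole list the longest coding transcript. Proteins were aligned with Biopython 1.88 (BLOSUM62, gap costs 11 and 1). Shares have exact Clopper-Pearson intervals (SciPy 1.17.1). The scripts were tested on simulated sites. The members and gene lists were chosen with earlier results of these data known. For members with more than 5 sites, the text names the 3 highest, the first, the last and the one nearest the stop codon, and others were chosen after their values were seen. Alternatives covered the site count, motif, merging, gene assignment, length, region and reader group.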

Additional observations from a re-analysis of the deposited data

How the results depend on the processing

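The number of members with a site was 6 as reported and 4 to 6 under every alternative, and the median of writers and erasers stayed 0. With a site count of 10 or more the members kept 13 sites, the median per reader was 1 (0.0733 per kb of exon), the 3' UTR share 23.1%, the median count 13 and the readers' summed count 199. With a count of 4 or more 36 sites were left, and in both cases the RAC share was 100%, which the list's own edge brings about. Merging sites within 10 nt left 38 sites, of which 84.2% were in RAC, and DRACH in place of RAC gave 52.5%. Without Hnrnpa2b1 the median per reader was 2.5 and the readers' summed count 226. Dividing by the longest coding transcript gave 1.22 sites per kb for the median reader, because merged exons are longer. Without the coding sites of Ythdf2, an alternative chosen after seeing the data, the readers' summed count was 245. Among single genes, Ythdf3 lost its only site at a count of 4 or more and Hnrnpa2b1 went from 25 to 13. At 10 or more Ythdf1 had 0, Ythdf2 9, Fto 1, Ythdc1 1 and Hnrnpa2b1 2. In RAC alone Hnrnpa2b1 had 15, and after merging Ythdf2 had 10 and Hnrnpa2b1 17. The other values over the members moved by less than 1.5 times or within their intervals. No paired analysis was possible because sites are not tied to any sample.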
